A study of Mus musculus with 16 samples.

Results

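The 10 genes described here, *Pcdh7*, *Cdh13*, *Cdh16*, *Nrcam*, *Nectin1*, *Sema6a*, *Nptx1*, *Nbl1*, *Tmem246* and *Calcrl*, encode proteins of the cell surface and secretory route, and were picked because they were strongly higher in eIF4A2-deleted lung tumour cells in every replicate pair. They are 10 of 20622 genes in the tables. They were selected on the ribosome footprint and mRNA changes between the cell lines themselves, so their changes are given as a description with no test. No sharp limit sets them apart: 60 genes were higher in 4 of 4 pairs with a footprint log2 fold change at or above that of *Nrcam*, the smallest of the set at 1.32, and the 10 made up 16.7% of those. Just beside it stood *Cdh22* at 1.33 and *Foxred2* at 1.32, neither of which belongs to the set.

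KM cells are a line from lung tumours of 1 male mouse carrying Rosa26LSL-MYC/LSL-MYC, in which an adenovirus with Cre under the surfactant protein C promoter of alveolar type II cells switched the transgene on, so both groups share extra MYC. KM_NTC cells carry a non-targeting CRISPR guide, and KM_4A2cr cells are a pool of 4 eIF4A2-negative clones made with a guide to *Eif4a2*, so the guide and the choice of clones cannot be told apart. Untreated cells of each line were lysed in 4 independent experiments on different days. Each lysate gave a library of ribosome-protected fragments (RPFs), the pieces of mRNA covered by translating ribosomes, and a library of total cytoplasmic RNA, 16 libraries in all. RPF libraries held 4512403 to 9621848 counts over coding sequences and total RNA libraries 5350920 to 9312624. Levels below are CPM, read counts scaled to a library size adjusted by the trimmed mean of M values (TMM).

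Cadherins are calcium-dependent adhesion proteins whose extracellular repeats bind the same or a related cadherin on the next cell. Immunoglobulin-type adhesion proteins such as NRCAM and nectins do so without calcium. Semaphorins are guidance ligands that bind plexin receptors and steer growing axons, and many of them are also made by epithelia, where they act on cell spreading and migration. Adhesion or guidance is the known role of 6 of the set, *Pcdh7*, *Cdh13*, *Cdh16*, *Nrcam*, *Nectin1* and *Sema6a*. It is not that of the other 4: *Nptx1* and *Nbl1* encode secreted proteins, *Tmem246* (now named *Pgap4*) a Golgi enzyme that adds a sugar to glycosylphosphatidylinositol (GPI) anchors, and *Calcrl* a hormone receptor.

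The targeted gene, *Eif4a2*, encodes a DEAD-box RNA helicase. In RPFs it had 97.7, 122, 99.8 and 389 CPM in KM_NTC replicates 1 to 4 and 51, 88.4, 74.8 and 346 CPM in KM_4A2cr, lower in 4 of 4 pairs. The log2 difference was -0.49 (SE 0.15, edgeR quasi-likelihood fit, Benjamini-Hochberg adjusted p = 0.0941), and the fall did not pass without replicate 1, 2 or 3, with an edgeR adjusted p of at most 0.377. Its total RNA log2 fold change was -0.18 (SE 0.13, edgeR adjusted p = 0.504). Replicate 4 was the highest in both lines. The mRNA of a gene cut by a guide need not fall, so these counts check the label only in part. Of 10 epithelial marker genes all were detected, with a summed RPF level of 7520 to 10200 CPM in KM_NTC and 8740 to 10600 in KM_4A2cr. That sum was higher in KM_4A2cr in 4 of 4 pairs, in RPFs as in total RNA, and 1 of the 10, *Epcam*, was called, at 0.51 in RPFs (edgeR adjusted p = 0.077). Its part in the differences described below was not tested. The alveolar type II markers *Sftpc* and *Sftpb* had 0 counts in both kinds of library.

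*Pcdh7* encodes a protocadherin with a long cytoplasmic tail. Its RPF level was 90.3, 29, 51.5 and 38.8 CPM in KM_NTC replicates 1 to 4 and 437, 144, 329 and 111 CPM in KM_4A2cr. Every KM_4A2cr library lay above every KM_NTC library, and replicate 1 was the highest in both lines. The RPF log2 fold change was 2.21 (SE 0.19), or 4.62-fold. In total RNA it had 137, 90.1, 106 and 59.6 CPM in KM_NTC and 644, 422, 622 and 169 CPM in KM_4A2cr, a log2 difference of 2.14 (SE 0.18), again without overlap. With 2.87-fold more footprints and 2.84-fold more mRNA, pair 4 showed the smallest difference.

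*Cdh13* encodes T-cadherin, which lacks the usual membrane span and is held by a GPI anchor. KM_NTC libraries held 3.53, 1.79, 3.42 and 10.1 CPM in RPFs and KM_4A2cr libraries 22.5, 12.3, 17 and 27.7 CPM, a log2 difference of 2.27 (SE 0.23). Replicate 4 was the highest in both lines and approached the lowest KM_4A2cr library, without overlap. Total RNA was 1.96, 1.17, 2.84 and 4.79 CPM against 17.5, 10.3, 12.3 and 22.8 CPM, a log2 difference of 2.62 (SE 0.23). *Cdh16* encodes kidney-specific cadherin, which has a short tail with no catenin-binding site. It had 14, 5, 8 and 0 RPF counts in KM_NTC and 78, 32, 44 and 6 in KM_4A2cr, a log2 difference of 2.85 (SE 0.31) and the third largest of all 10291 genes tested. A count of 0 in KM_NTC replicate 4 allows a level of up to 0.629 CPM (3 counts, counting error only). *Cdh16* total RNA, with 13 counts over the KM_NTC libraries and 53 over the KM_4A2cr libraries, was too scarce for the fit. In CPM that was 0.421, 0.45, 0.406 and 0.383 against 3.43, 1.4, 3.22 and 0.922, so the lines did not overlap there either.

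*Nrcam*, an adhesion protein of the L1 family that binds ankyrin in neurons, had the smallest RPF difference of the set. RPFs gave 61.6, 25.8, 46 and 31.5 CPM in KM_NTC and 138, 78.5, 131 and 62.5 CPM in KM_4A2cr, a log2 difference of 1.32 (SE 0.14). The lowest KM_4A2cr library was barely above the highest KM_NTC library. Its mRNA difference was larger, at 21.5, 8.63, 15.1 and 10.2 CPM against 54.8, 35, 58.1 and 25.8 CPM, a log2 difference of 1.68 (SE 0.16). *Nectin1* encodes an immunoglobulin-type adhesion protein linked to actin through afadin. Its RPF level was 20.5, 7.84, 15.3 and 32.7 CPM in KM_NTC and 52.5, 31.1, 69.9 and 118 CPM in KM_4A2cr, a log2 difference of 1.83 (SE 0.16). The lines overlapped, since KM_NTC replicate 4 exceeded KM_4A2cr replicate 2, although each pair taken alone differed by 2.56-fold to 4.55-fold. *Nectin1* total RNA, 14.9, 7.02, 9.47 and 27.8 CPM against 34.7, 23.3, 40.1 and 68 CPM, overlapped in the same way, and its log2 difference was 1.56 (SE 0.17).

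*Sema6a* is the guidance ligand of the set, a membrane-spanning semaphorin that binds plexins A2 and A4. Its RPF level was 0.724, 0.596, 1.1 and 3.57 CPM in KM_NTC and 3.86, 4.67, 10.1 and 16.2 CPM in KM_4A2cr, from 39 and 202 counts in all, a log2 difference of 2.63 (SE 0.25). KM_NTC replicate 4 stood well above the other 3 and reached almost the level of the lowest KM_4A2cr library. Total RNA behaved likewise, with 1.54, 1.35, 2.84 and 8.24 CPM against 8.99, 12.6, 21.2 and 44.9 CPM and a log2 difference of 2.74 (SE 0.19).

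Among the secreted proteins, *Nptx1* encodes neuronal pentraxin, which gathers glutamate receptors at synapses. It had 71.2, 15.6, 36 and 112 CPM of RPFs in KM_NTC and 208, 49.1, 105 and 247 CPM in KM_4A2cr, a log2 difference of 1.47 (SE 0.14). The lines overlapped, KM_NTC replicate 4 being above 2 of the KM_4A2cr libraries, while the pair ratios stayed between 2.2 and 3.15. *Nptx1* total RNA was 78.5, 23.3, 41.1 and 97.9 CPM against 228, 65.8, 93.9 and 169 CPM, a log2 difference of 1.25 (SE 0.15) and the same overlap. *Nbl1* encodes a secreted antagonist of bone morphogenetic proteins (BMPs). Its RPFs were 25.3, 16.8, 28.5 and 55 CPM in KM_NTC and 86.5, 62, 133 and 124 CPM in KM_4A2cr, a log2 difference of 1.76 (SE 0.18), with no overlap. The mRNA difference was 1.61 on the log2 scale (SE 0.14), from 28.3, 20.2, 32.6 and 58.6 CPM to 93.7, 65.8, 115 and 137 CPM.

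*Tmem246* had the largest difference of the set. Its RPF counts were 7, 1, 5 and 0 in KM_NTC and 76, 34, 58 and 10 in KM_4A2cr, so even the shallowest KM_4A2cr library held more than any KM_NTC library. The RPF log2 fold change was 4.03 (SE 0.35), second of all genes tested, and the total RNA log2 fold change of 3.33 (SE 0.28) was the largest of all 10880 genes tested there. Total RNA levels were 0.982, 0.989, 1.08 and 0.766 CPM in KM_NTC, a narrow range, and 15.5, 6.11, 15 and 4.84 CPM in KM_4A2cr. Because the KM_NTC footprint counts are so few, the size of the RPF change is less certain than its direction. Nothing is read from these ranks or that of *Cdh16*, since the same contrasts chose the genes. The total RNA rank also leaves out genes too scarce for the fit there, such as *Acp5* with 7 counts in KM_NTC and 67 in KM_4A2cr. *Calcrl* encodes the receptor for adrenomedullin and calcitonin gene-related peptide, which needs a RAMP protein as partner. It had 3, 7, 11 and 0 RPF counts in KM_NTC and 14, 32, 65 and 10 in KM_4A2cr, a log2 difference of 2.72 (SE 0.36). *Calcrl* mRNA was 0.561, 2.25, 3.92 and 1.34 CPM in KM_NTC and 2.94, 11.7, 18.6 and 3.23 CPM in KM_4A2cr, a log2 difference of 2.17 (SE 0.24). Here the lines overlapped, since replicates 1 and 4 of KM_4A2cr were below KM_NTC replicate 3.

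The genes lie on different chromosomes for the most part. *Cdh13* and *Cdh16* are both on chromosome 8 and *Nbl1* and *Tmem246* both on chromosome 4, while *Pcdh7* is on 5, *Nrcam* on 12, *Nectin1* on 9, *Sema6a* on 18, *Nptx1* on 11 and *Calcrl* on 2. RefSeq promoter windows, 250 bases before to 50 bases after a start site in GRCm38.p6, were at hand for 5 of the 10 genes. *Tmem246*, the gene with the largest difference, has 2 start sites with unlike promoters, and the 150 bases before each are printed here in the direction of the gene with the motifs that were searched and found in capitals. The first stretch is chr4:49597471-49597620 and the other chr4:49597877-49598026, both on the minus strand of GRCm38.p6. The motifs searched, on both strands, were the TATA box TATAAA, the GC box GGGCGG, the CCAAT box CCAAT, the E-box CACGTG and the cyclic AMP response element TGACGTCA.
Tmem246 start 1: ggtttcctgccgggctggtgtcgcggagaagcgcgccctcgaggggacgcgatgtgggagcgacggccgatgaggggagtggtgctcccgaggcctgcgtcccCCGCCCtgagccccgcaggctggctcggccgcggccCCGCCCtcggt
Tmem246 start 2: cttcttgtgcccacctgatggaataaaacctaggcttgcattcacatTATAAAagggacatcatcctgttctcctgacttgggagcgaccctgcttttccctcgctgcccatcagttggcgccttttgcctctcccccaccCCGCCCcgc

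The first stretch has a GC content of 76.7% with 20 CpG dinucleotides and holds GGGCGG on the opposite strand, and the second has 55.3% with 5, a TATAAA 103 bases before the start and GGGCGG on the opposite strand. Over the whole 300-base windows, the 5 genes were unlike each other. *Nbl1* had 43 CpG dinucleotides, more than 97.4% of all 32851 promoters, *Nrcam* 37, more than 94.4%, and the first *Tmem246* window 34, more than 92.3%. *Pcdh7* had 11, the second *Tmem246* window 10 and *Calcrl* 7, beside a median of 7. GGGCGG occurred in the windows of all but *Pcdh7*, on either strand, and in 35.7% of all promoters. TATAAA was found in the second *Tmem246* window alone, and in 13.6% of all promoters. None of the windows held CCAAT or CACGTG or TGACGTCA, which occur in 37.4%, 7.15% and 1.79% of promoters. The files do not say which *Tmem246* start was used, since 1 isoform is listed.

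**Figure D1:**
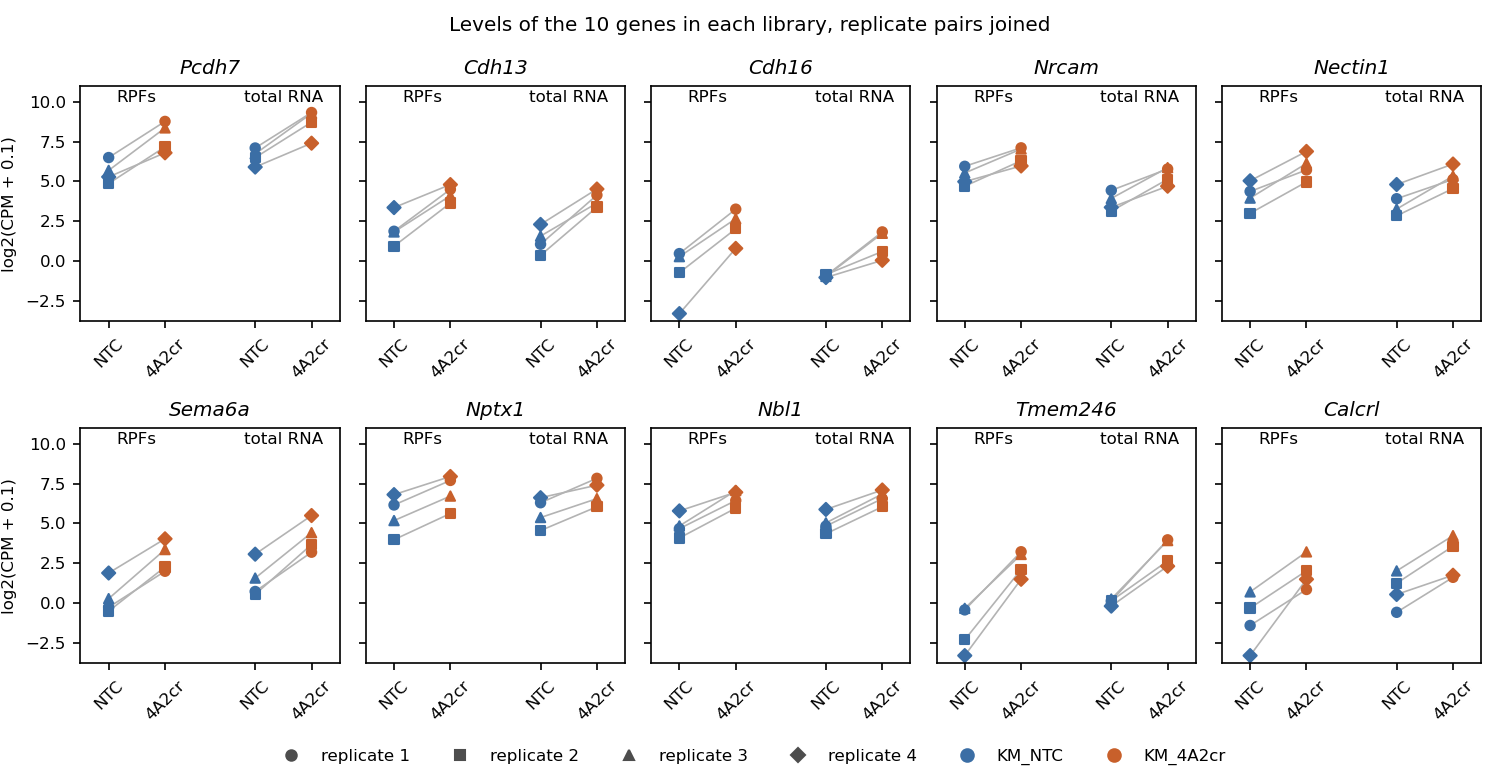
Level of each gene in every library, as log2 of CPM plus 0.1, in RPFs (left of each panel) and total RNA (right), with KM_NTC in blue, KM_4A2cr in orange and a grey line joining the 2 libraries of a replicate. Every line slopes upwards, and the points at the bottom of the *Cdh16*, *Tmem246* and *Calcrl* panels are KM_NTC replicate 4 with 0 RPF counts.

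All 10 genes were higher in each of the 4 pairs, in RPFs as in total RNA, which the choice of the set fixed and which held for 14.1% of genes tested in RPFs and 12.4% in total RNA. The lines did not overlap for 8 of the 10 in RPFs, against 0.981% of all genes tested, and for 7 in total RNA, against 0.938%. Nothing is read from these shares, since the same contrasts chose the genes. The median RPF log2 fold change of the 10 was 2.24, beside -0.01 over all genes tested, and that in total RNA 2.14 for the 9 tested, beside 0.01. In bulk RNA of this kind, a change in the share of cells that make an mRNA and a change in the amount per cell cannot be told apart.

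Per length of transcript, the set spanned a wide range. In deposited TPM, a level corrected for transcript length, *Pcdh7* was the most abundant mRNA, with 38 ± 11.9 in KM_NTC and 166 ± 85.8 in KM_4A2cr (SD, n = 4), followed by *Nbl1* with 36 ± 11.3 and 95.2 ± 14.8 and *Nptx1* with 19.8 ± 9.3 and 41.8 ± 23.3. *Pcdh7* and *Nbl1* did not differ beyond their spread in KM_NTC. *Nrcam* (4.7 ± 2) and *Nectin1* (4.44 ± 2.11) were likewise close in KM_NTC. *Cdh13* at 1.23 ± 0.538 and *Sema6a* at 1.22 ± 0.965 TPM were almost level there and again in KM_4A2cr, at 6.48 ± 1.26 and 6.42 ± 3.03. At the low end, *Calcrl* had 0.768 ± 0.565, *Tmem246* 0.603 ± 0.149 and *Cdh16* 0.268 ± 0.0574 TPM in KM_NTC, and *Tmem246* passed *Calcrl* in KM_4A2cr, with 5.98 ± 3.56 against 3.24 ± 2.79 TPM, within their spread. A single isoform was listed for 6 genes. For *Pcdh7* and *Nrcam*, the isoform on which footprints were counted held 43.1% and 44.2% of total RNA counts in KM_NTC and 42.7% and 46% in KM_4A2cr. *Sema6a* gave 36.7% and 32.1%, and *Cdh16*, from very few counts, 53.8% and 37.7%.

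The footprint change can come with a change in mRNA or go beyond it. As a share, the total RNA log2 fold change of each gene was divided by its RPF log2 fold change, and the difference of both, the change in translational efficiency, was fitted over all 16 libraries. The mRNA share was 80.1% to 126% over the 9 genes tested in both, with a median of 91.5%. Taken pair by pair, the median share was 103%, 96.7%, 94.6% and 98.9%. More mRNA gain than footprint gain was seen for 3 genes: *Cdh13* at 115%, *Nrcam* at 126% and *Sema6a* at 105%. The translational efficiency log2 change was -0.33 for *Nrcam* (SE 0.12), with the mRNA gain ahead of the footprint gain in 4 of 4 pairs. For *Cdh13* it was -0.39 (SE 0.25), and -0.56 to -0.19 over the other ways of processing, and for *Sema6a* -0.11 (SE 0.34), the latter ranging from -0.22 to 0.03 over the other ways of processing.

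The other 6 genes had a share below 100%. *Nectin1* had a translational efficiency log2 change of 0.28 (SE 0.14) and *Nptx1* one of 0.21 (SE 0.1), with the footprint gain ahead in 4 of 4 pairs for both. *Pcdh7* was ahead in 4 pairs as well, but only by 0.07 (SE 0.1). *Nbl1* stood at 0.14 (SE 0.11), ahead in 3 pairs. *Tmem246* at 0.58 (SE 0.52) and *Calcrl* at 0.48 (SE 0.42) had the largest values and the largest errors, with the footprint gain ahead in 2 of 4 pairs each, so neither exceeded its error by much. Over the other ways of processing they ran from 0.10 to 1.04 and from 0.25 to 0.71. The median over the 9 genes was 0.14, beside -0.02 over all 9989 genes tested, of which 2.91% were called, 1.87% higher and 1.04% lower. Since the genes were chosen on both contrasts, a difference in mRNA beside that in footprints was fixed by the choice. *Cdh16* has no efficiency value in the main fit.

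**Figure D2:**
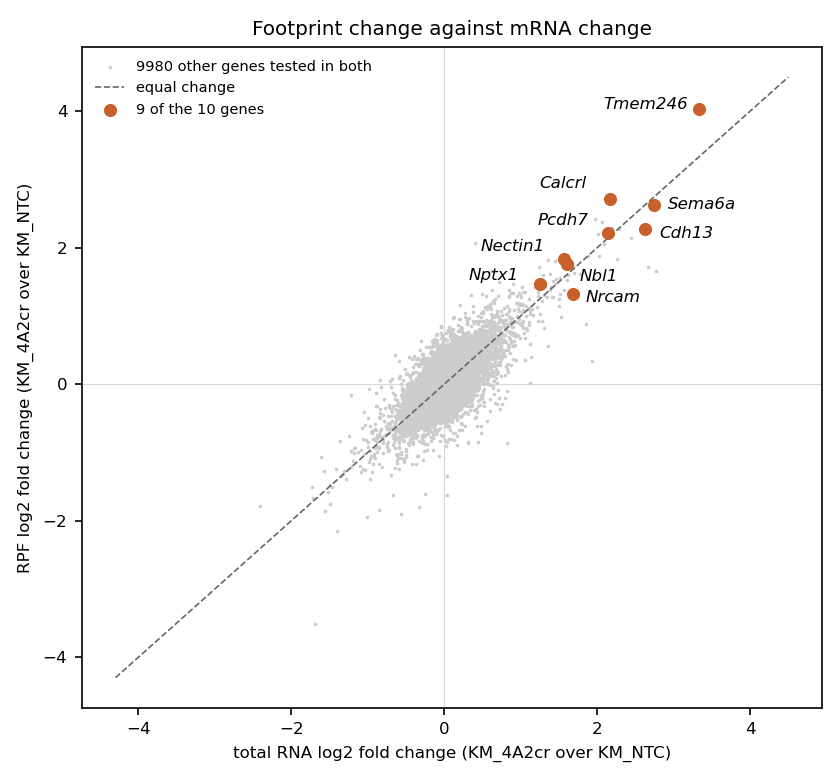
RPF log2 fold change against total RNA log2 fold change, KM_4A2cr over KM_NTC, for the 9 genes tested in both kinds of library (orange) and all other such genes (grey), with a dashed line where both are equal. The 9 genes follow the dashed line from *Nptx1* (1.25 in total RNA, 1.47 in RPFs) to *Tmem246* (3.33 and 4.03), and *Nrcam* lies farthest below it in proportion to its change.

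Replicate 4 stood apart from the others in opposite directions for 2 groups of 5 genes, a feature that the choice of genes did not use. For *Cdh13*, *Nectin1*, *Sema6a*, *Nptx1* and *Nbl1*, replicate 4 lay above the median of replicates 1 to 3 in both lines and both kinds of library, by 0.52 to 2.22 on the log2 scale. For *Pcdh7*, *Cdh16*, *Nrcam*, *Tmem246* and *Calcrl*, replicate 4 lay below it in both lines and both kinds, with differences of -0.08 to -2.36, the last for *Cdh16* with 0 RPF counts in KM_NTC. *Sema6a* was at the upper end, at 1.95 in KM_NTC RPFs, 2.22 in KM_NTC total RNA and 1.73 and 1.81 in KM_4A2cr, above 97.9% to 99.3% of all genes tested. *Pcdh7* differed from its median by -0.41 and -0.83 in KM_NTC and by -1.56 and -1.88 in KM_4A2cr. Such a one-sided shift in both lines and both kinds of library was common: 26.5% of the 9989 genes tested in both kinds lay above in all and 28.8% below. Of the 20 values of the upper 5 genes 18 lay beyond the range of replicates 1 to 3, and of the 20 of the lower 5 genes 14, the smallest being that of *Cdh16* total RNA from 2 to 5 counts. Both groups of genes were higher in KM_4A2cr in replicate 4 as in the others. This split was noticed after the values were seen, and 1 day of the experiment cannot be told apart from other features of that replicate. *Eif4a2* footprints were also highest in replicate 4 in both lines, and the part of that in the split was not tested.

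**Figure D3:**
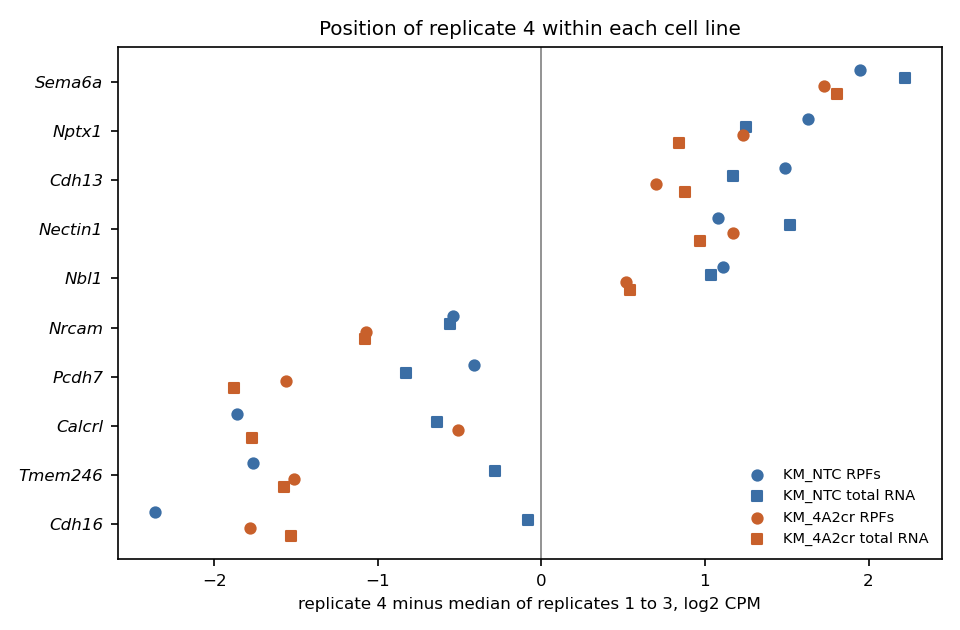
Log2 CPM of replicate 4 minus the median of replicates 1 to 3 for each gene, in KM_NTC (blue) and KM_4A2cr (orange), RPFs as circles and total RNA as squares. The upper 5 genes lie to the right of 0 and the lower 5 to the left in every line and kind of library.

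Pair 4 also had the smallest ratio of KM_4A2cr to KM_NTC for most of the genes with counts in every library. Among the 7 genes with RPF counts above 0 in every library it was the lowest pair for 6, with a median ratio of 2.75 against 3.41, 3.97 and 4.66 in pairs 1 to 3. *Nectin1* was the exception, lowest in pair 1. The other 3 genes, with 0 counts in KM_NTC replicate 4, have no such ratio for that pair. On the log2 scale with a prior count of 2, pair 4 was the highest for *Cdh16* (2.83) and *Calcrl* (3.48). For *Tmem246* it stood at 3.48, within the 3.15 to 3.61 of its other pairs. The prior count weighs heavily where a count is 0, so these values cannot be set beside the ratios of the other 7. In total RNA pair 4 was lowest for 7 of 10, with a median ratio of 2.5 against 4.97, 4.37 and 4.53. *Cdh16* and *Calcrl* were among those 7 and *Tmem246* was not. Without replicate 4 the median log2 fold change of the set was 2.48 in RPFs and 2.31 in total RNA, over 10 genes in both. How often pair 4 was lowest among all genes tested was not counted, so a small pair 4 ratio cannot be taken as particular to the set. Over all genes, leaving out replicate 4 took the edgeR calls in RPFs from 1062 to 3469.

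Genes that work with the 10 were taken from 9 lists of cadherins, catenins and nectins, axonal immunoglobulin proteins, semaphorin signalling, netrin, slit and ephrin guidance, BMP signalling, GPI anchor synthesis, calcitonin receptors and pentraxins, with the 10 genes left out. In RPFs 174 of them were tested: 32 rose and 6 fell at an adjusted p under 0.1, or 21.8%, beside 10.3% of all genes (6.6% rose and 3.72% fell). The median log2 fold change was 0.21, beside -0.01. In total RNA 23 rose and 8 fell of 169, or 18.3%, beside 6.13% of all genes (4.35% and 1.78%), with a median of 0.17. Scaling by library size only turned the balance to 28 higher and 14 lower in RPFs and 17 and 13 in total RNA. All genes shifted down with it, to 482 higher and 1137 lower in RPFs and 262 and 868 in total RNA. In translational efficiency 3 rose and 1 fell of 167, or 2.4%, beside 2.91%. The RPF calls depended on replicates 1 to 3 and on the replicate term. Of the 38 called genes, 8, 7 and 0 passed the test without replicate 1, 2 and 3 and all 38 without replicate 4, while all 38 kept their direction in each case. Without replicate 3, edgeR called 0 of the listed genes, with 43 at an unadjusted p under 0.05, and without replicate 4 it called 99. Of the 31 total RNA calls, 10, 9 and 5 passed without replicate 1, 2 and 3 and all 31 without replicate 4. Without the replicate block edgeR called 0 in both kinds of library, with 16 in RPFs and 14 in total RNA at an unadjusted p under 0.05.

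Among cadherin family genes 6 rose and 2 fell in RPFs of 17 tested, with a median log2 fold change of 0.40. *Clstn1*, a calsyntenin, rose by 0.69 (SE 0.12, edgeR adjusted p = 0.0198), *Pcdh1* by 0.59 (edgeR adjusted p = 0.03) and the desmosomal *Dsg2* by 0.60 (edgeR adjusted p = 0.0388). These are well below the 2.21 to 2.85 of *Pcdh7*, *Cdh13* and *Cdh16*. The largest rise of the list, named after its values were seen, was that of *Cdh22* at 1.33 (edgeR adjusted p = 0.0569). The 2 that fell, named after their values were seen, were *Cdh2*, N-cadherin, by 0.82 and the desmosomal *Dsc2* by 0.97. Of the catenins that link classical cadherins to actin or hold them at the membrane, *Ctnnb1* had an RPF log2 fold change of -0.34 (edgeR adjusted p = 0.153) and *Ctnnd1* one of -0.38 (edgeR adjusted p = 0.18). In the catenin and nectin list 2 rose and 1 fell of 21, with *Cadm4* at 0.94 (edgeR adjusted p = 0.0166), *Nectin4* at 0.73 in 3 of 4 pairs (edgeR adjusted p = 0.0907) and *Pkp2* at -0.43 (edgeR adjusted p = 0.084). *Nectin3*, which binds nectin 1 on the next cell, had a value of 0.10 (edgeR adjusted p = 0.742) and *Afdn*, its link to actin, one of -0.06 (edgeR adjusted p = 0.823). Without replicate 3 none of the called genes of both lists passed. For *Clstn1*, *Pcdh1*, *Dsg2*, *Cadm4*, *Nectin4* and *Pkp2* the highest edgeR adjusted p with a replicate left out was 0.13 to 0.389.

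The list of axonal immunoglobulin proteins, which also holds ankyrins and adhesion proteins of other cells, had 3 genes that rose and 0 that fell of 16 in RPFs. *L1cam*, the founding relative of *Nrcam*, rose by 0.43 (edgeR adjusted p = 0.0844), *Ntm* by 1.08 in 3 of 4 pairs (edgeR adjusted p = 0.0922, from 40 and 76 counts) and *Cntn6* by 0.56 (edgeR adjusted p = 0.0713). DESeq2 called 1 of the 16, and with a replicate left out the highest edgeR adjusted p of the 3 was 0.392, 0.43 and 0.314. *Cntn6* had 384 and 460 RPF counts but 1 count of total RNA in all 8 libraries. In total RNA edgeR and DESeq2 both called 0 of the 15 tested in this list, with 3 and 1 at an unadjusted p under 0.05. *Nfasc*, another L1 relative, had a value of -0.19 (edgeR adjusted p = 0.721), and *Ank3*, an ankyrin bound by NRCAM, one of -0.07 (edgeR adjusted p = 0.784).

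Semaphorin signalling had 7 genes that rose and 2 that fell of 29 in RPFs, with a median log2 fold change of 0.37, and in total RNA 7 rose and 3 fell of 27. *Plxna4*, a receptor of SEMA6A, also rose: 38, 17.8, 37.7 and 21.8 CPM in KM_NTC and 128, 42.2, 127 and 35.5 CPM in KM_4A2cr. Its RPF log2 fold change was 1.40 (SE 0.19, edgeR adjusted p = 0.00789) and that in total RNA 1.23 (edgeR adjusted p = 0.00721), higher in 4 of 4 pairs, although the lines overlapped. *Plxna2*, the other receptor, had an RPF value of -0.10 (SE 0.21, edgeR adjusted p = 0.804) from levels of 24.5 to 70.1 CPM. *Sema5a*, named after its values were seen, had the largest rise of the list and one as large as those of the set, by 2.15 in RPFs (SE 0.37, edgeR adjusted p = 0.0185, and 0.13 without replicate 3) and 2.44 in total RNA (edgeR adjusted p = 0.00292), without overlap of the lines. The semaphorins that rose also included *Sema4b* by 0.92 (edgeR adjusted p = 0.00829) and *Sema6d*, a class 6 semaphorin like *Sema6a*, by 1.03 (edgeR adjusted p = 0.0111). The 2 that fell in RPFs, named after their values were seen, were *Enah* by 1.02 (edgeR adjusted p = 0.0185) and *Mical2* by 0.78 (edgeR adjusted p = 0.0363). With a replicate left out, their highest edgeR adjusted p was 0.194 and 0.259. Their relatives in the list, also named afterwards, were not called in RPFs: *Vasp* at 0.26, *Evl* at 0.37, *Mical1* at -0.32 and *Mical3* at 0.36. In total RNA *Nrp1*, likewise named afterwards, also fell, by 0.93 (edgeR adjusted p = 0.062). Its RPF value was -0.80 (edgeR adjusted p = 0.135). Without replicate 3 the edgeR adjusted p in RPFs was 0.153 for *Plxna4*, 0.157 for *Sema4b* and 0.149 for *Sema6d*.

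Netrin, slit and ephrin guidance showed 8 rises and 0 falls of 22 in RPFs, with a median log2 fold change of 0.40, and 6 and 1 of 21 in total RNA. *Efnb1* and *Efna1*, membrane-bound ephrin ligands, rose by 0.93 (edgeR adjusted p = 0.00859) and 0.95 (edgeR adjusted p = 0.0118), and the ephrin receptor *Ephb2* by 1.62 (edgeR adjusted p = 0.0197). All 3 rose in total RNA too, by 0.89, 0.98 and 1.78 (edgeR adjusted p of 0.00829, 0.0054 and 0.00239). With a replicate left out, the highest RPF adjusted p was 0.13, 0.14 and 0.231.

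The next lists go with *Nbl1* and *Nptx1*, the secreted genes of the set. BMP signalling had 4 rises and 0 falls of 25 in RPFs and 1 and 0 of 23 in total RNA. *Twsg1*, a BMP-binding protein, rose by 0.69 (edgeR adjusted p = 0.0305), the receptor *Bmpr1a* by 0.73 (edgeR adjusted p = 0.0344), *Fstl3* by 0.58 (edgeR adjusted p = 0.0606) and *Bmp2*, a ligand, by 1.07 (edgeR adjusted p = 0.0723), the last in 3 of 4 pairs. *Bmp4* was too scarce for the fit, with 49 RPF counts in KM_NTC and 14 in KM_4A2cr. *Id1*, a target gene of BMP signalling, had a value of -0.24 (edgeR adjusted p = 0.403). Left without 1 replicate, each of the 4 rises passed in 1 of 4 fits, with a highest adjusted p of 0.241 to 0.36. *Nptxr*, the membrane-bound pentraxin receptor that joins NPTX1, rose by 0.73 in RPFs (edgeR adjusted p = 0.0604) and 0.80 in total RNA (edgeR adjusted p = 0.0433), and its RPF adjusted p reached 0.284 with 1 replicate left out. *Nptx2* was listed at 0 counts of total RNA.

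*Calcrl* needs a RAMP partner to bind its ligands. *Ramp1* was present at 20.5 to 55.4 CPM of RPFs in KM_NTC and about 31 in KM_4A2cr, with a log2 fold change of -0.07 (edgeR adjusted p = 0.876). *Ramp3* had a value of -0.46 (edgeR adjusted p = 0.238), and *Ramp2* 0 counts of total RNA. Of the ligands, *Adm* had 2 and 0 RPF counts, and *Adm2* fell by 0.73 (edgeR adjusted p = 0.0669, highest 0.356 with a replicate left out). It was the only edgeR call in RPFs among 12 tested genes of the calcitonin receptor list, which also holds G protein, arrestin and adenylyl cyclase genes. DESeq2 called 0 of the 12, with 3 at an unadjusted p under 0.05. Of 30 genes of GPI anchor synthesis, the pathway that *Tmem246* serves, 1 rose in RPFs, *Pigf* by 0.41 (edgeR adjusted p = 0.0856, highest 0.415 with a replicate left out), and in total RNA edgeR and DESeq2 both called 0, with 2 and 1 at an unadjusted p under 0.05. Their median RPF log2 fold change was 0.20, with 27 of 30 above 0, beside 5029 of all 10291 genes tested.

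**Figure D4:**
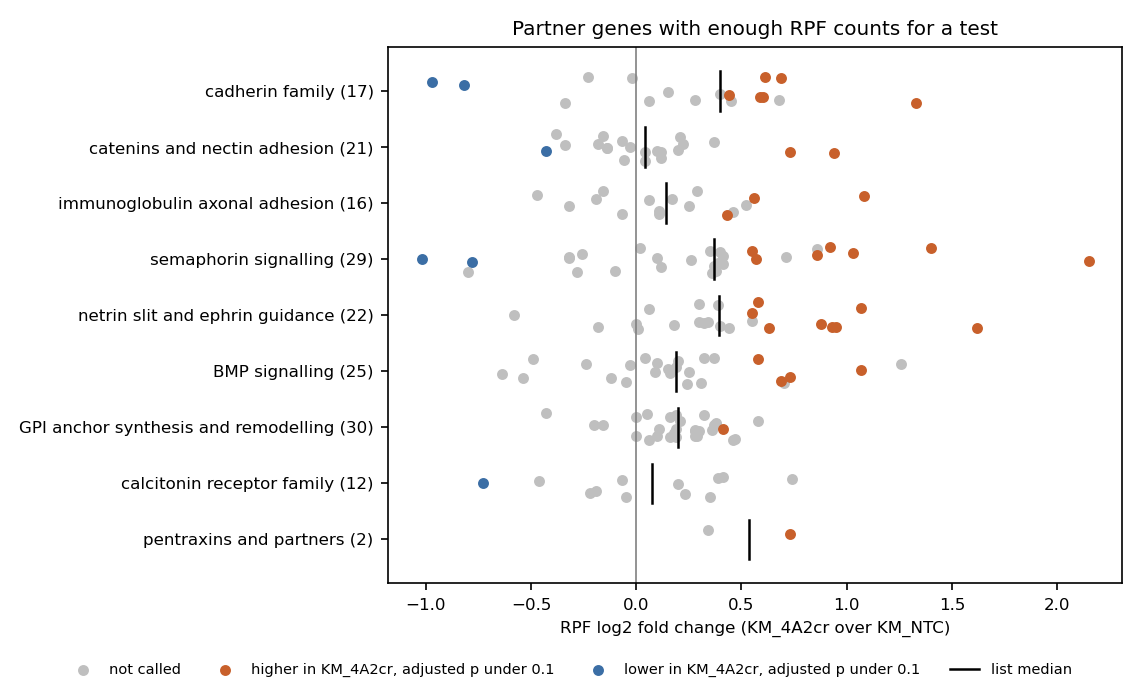
RPF log2 fold change, KM_4A2cr over KM_NTC, of each tested gene in the 9 partner lists (number tested in brackets), with genes called at an adjusted p under 0.1 in orange (higher) or blue (lower), others in grey and a black bar at the list median. The cadherin, semaphorin and netrin, slit and ephrin lists have medians of 0.37 to 0.40. Most of their genes are grey, as are most catenin and GPI anchor genes.

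A search for genes whose RPF profile over the 8 libraries was most like that of the set gave *Ptafr*, the receptor for platelet-activating factor, with a Pearson r of 0.982 to the mean profile of the 10. *Rnf157* at 0.964, *Azin1* at 0.957, *Fcna* at 0.956 and *Dgat2* at 0.954 followed. For single genes the nearest were *Sema4b* for *Nptx1* (0.992), *Col13a1*, a membrane-spanning collagen, for *Sema6a* (0.987), *Fcna* for *Nbl1* (0.984), *Mib1* for *Nrcam* (0.983), *Acp5*, a lysosomal acid phosphatase, for *Tmem246* (0.979) and the protease *Hpn* for *Cdh13* (0.979). *Klk10* was nearest to *Pcdh7* (0.971), *Neurl4* to *Cdh16* (0.966) and *Ccnc* to *Calcrl* (0.955). These are the highest of all genes tested over points that share line, day and depth, and are given as a description. Outside the set, the largest RPF rises in 4 of 4 pairs were those of *Acp5* at 4.12, *Gpr50*, an orphan receptor of the melatonin family, at 2.45 and *Slc36a4*, an amino acid transporter, at 2.43.

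Markers of other cell types had overlapping summed levels in the 2 lines, and their part in the differences was not tested. The summed RPF level of 10 neuronal markers was 5.04 to 10.1 CPM in KM_NTC and 4.58 to 9.68 in KM_4A2cr, higher in 0 of 4 pairs, with *Rbfox3*, *Stmn2*, *Elavl4* and *Nefl* at 0. The 10 endothelial markers summed to 18.2 to 47.4 CPM and 24.8 to 41.8 CPM, higher in KM_4A2cr in 3 of 4 pairs, with *Tie1*, *Cldn5*, *Emcn*, *Erg* and *Sox17* at 0. For neuroendocrine markers the ranges were 3.28 to 7.13 and 4.67 to 6.52 CPM, higher in 3 of 4 pairs. Fibroblast markers gave 4.16 to 23.7 and 7.37 to 15.6 CPM, also higher in 3 of 4 pairs. Macrophage markers gave 121 to 820 and 156 to 714 CPM, higher in 2 of 4 pairs. The macrophage sum came mostly from *Cd68* (6166 RPF counts in KM_NTC and 5139 in KM_4A2cr) and *Cd14* (1877 and 1575). *Fcgr1*, *Itgam*, *Tyrobp* and *C1qa* were at 0. Alveolar type II markers, of which 5 of 10 were detected, gave 85.9 to 161 CPM in KM_NTC and 101 to 192 CPM in KM_4A2cr and the sum was higher in 4 of 4 pairs. Of the 2 tested, *Abca3*, a lipid transporter, rose by 0.54 (edgeR adjusted p = 0.0501), with 3008 and 3660 counts, and *Etv5* had a value of -0.42 (edgeR adjusted p = 0.119), with 1056 and 627.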

How the data were processed

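The authors deposited RPF counts as whole numbers for each coding sequence, leaving out its first 20 and last 10 codons, from deduplicated reads aligned with BBmap to the most abundant filtered GENCODE transcript of each gene. Expected counts and TPM of each isoform, which the authors deposited for total RNA, came from RSEM 1.3.3 after Bowtie2 2.3.5.1. The submitters' notes also name cutadapt 1.18 and UMI-tools 1.0.1. Here expected counts were summed per gene and rounded, and a transcript missing from an RPF table was taken as 0.

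Genes were filtered with filterByExpr, scaled by TMM and tested with edgeR 4.0.16 (glmQLFit, glmQLFTest, R 4.3.3), with terms for line and replicate, Benjamini-Hochberg adjustment over all genes and a threshold of 0.1. Efficiency was fitted as the interaction of line and library kind over all libraries, each kind scaled on its own, so a change of all mRNA or all footprints would not be seen. Pair values used log2 CPM with a prior count of 2. The replicate numbers pair the samples: deviations of same-numbered libraries from their line's mean correlated at 0.575 to 0.782 in RPFs and 0.611 to 0.756 in total RNA, the labels giving separate days. Replicates are cultures of 1 line, so p-values measure how much the difference between the lines varied from experiment to experiment.

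The 10 genes and all lists were chosen with earlier results of these data known. Named besides them were their direct partners, up to 3 called genes of smallest RPF p per list, the most similar profiles, the 3 largest other rises and *Eif4a2*. Tests were tried on simulated counts first. There, 16.4% of RPF calls, 10% of total RNA calls and 12.8% of efficiency calls fell on unchanged genes, at the threshold of 0.1. The alternatives were no block, DESeq2 1.42.0, other scalings and filters, a threshold of 0.05, each replicate left out and counts of the RPF isoform only. Promoter windows came from a RefSeq table of GRCm38.p6, a build other than that of the files. Part of the shared genotype of the cells and 1 result of the profile search are not reported here.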

Additional observations from a re-analysis of the deposited data

Results flagged for a closer look

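*Sema6a* RPFs in KM_NTC stood out for 1 library far from the other 3. Replicate 4 had 3.57 CPM, beside 0.596, 0.724 and 1.1 CPM, and its gap to the nearest was 0.832 of the whole range, just above Dixon's 95% critical value for 4 samples. In all 40 groups of 4 libraries were looked at, and chance alone marks about 1 in 20. The values rest on 17 counts in replicate 4 and 6 to 8 in the others.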

How the results depend on the processing

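Each of the 10 genes stayed higher in KM_4A2cr in RPFs in every alternative in which it was tested. So did the 9 genes other than *Cdh16* in total RNA. RPF log2 fold changes were 1.19 to 1.42 for *Nrcam* and 3.83 to 4.33 for *Tmem246*. *Cdh16* had no RPF value without replicate 1. In total RNA it was tested only with no filter and without replicate 4, and its own values there are not given. The median of the set was 1.83 in RPFs and 1.68 in total RNA under a stricter filter of 30 counts in 4 libraries. That filter kept 7 of the 10 genes, and in RPFs it left out *Cdh16*, *Tmem246* and *Calcrl*. The median mRNA share was 87.7% with no filter and 96.8% with the stricter one. Leaving out 1 replicate gave 2.11 to 2.48 for the median in RPFs, 2 to 2.31 in total RNA and 89.6% to 94.4% for the share.

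Counts of calls depended on the fit far more. Without the replicate block edgeR called 0 genes in RPFs, total RNA and translational efficiency (365, 362 and 498 at an unadjusted p under 0.05), and 0 of the listed partners in both kinds (16 and 14 at that p). With a threshold of 0.05 it called 438, 321 and 76 genes, and 19 and 20 partners. Scaling by library size only, which shifted the median of all genes to -0.14 in RPFs and -0.15 in total RNA, called 1619 genes in RPFs (482 higher and 1137 lower, against 679 and 383), 1130 in total RNA (262 and 868, against 473 and 194) and 132 in efficiency. Upper-quartile scaling gave 534 higher and 464 lower in RPFs and 325 and 216 in total RNA. Relative to the median of all genes, that of the 10 was 2.25 in RPFs and 2.13 in total RNA under these scalings. No filter called 1268 genes in total RNA and 475 in efficiency, and DESeq2 139 in efficiency. Leaving out 1 replicate gave 32 to 3469 genes in RPFs (32 without replicate 3, 3469 without replicate 4), 63 to 3260 in total RNA, 10 to 673 in efficiency, and 0 to 99 and 5 to 105 partners. The cause was not tested.

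Direct partners near 0 changed sign in some fits, as *Nectin3* in RPFs at -0.04 under library size scaling. Leave-one-out values in RPFs ran from -0.34 to 0.10 for *Plxna2*, -0.04 to 0.24 for *Nectin3*, -0.12 to 0.04 for *Afdn*, -0.33 to 0.17 for *Ramp1*, -0.12 to 0.03 for *Ank3* and -0.41 to 0.05 for *Nfasc*. With 0 to 14 RPF counts per KM_NTC library, depth limits *Cdh16*, *Tmem246* and *Calcrl* most.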
